A study of Oryctolagus cuniculus with 12 samples.

Results

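KLHL14, RBBP8NL, TRIM46, PCDH8, CABP1, SMTNL2 and EDAR are 7 of the 20566 genes measured in rabbit conjunctiva, and each was lower in every library collected 3 hours after glaucoma filtration surgery than in every control library. They were chosen by these measured 3-hour values against controls, so that difference is given as a description and is not tested. The question followed here is how far each gene had returned by 3 days and by 14 days. All 7 genes were found in the gene table by symbol, and all 7 passed the filter on low counts that left 14835 genes for testing. A gene that is low in 1 group passes that filter through its level in the other groups.

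The right eye of female Japanese white rabbits was operated on by trabeculectomy, with mitomycin C applied. Trabeculectomy opens a drainage route under a flap of sclera, so that aqueous humour collects beneath the conjunctiva in a filtration bleb, and mitomycin C is a DNA-crosslinking drug applied to limit scarring. Bleb conjunctiva was taken 3 hours (TL-3h), 3 days (TL-3d) or 14 days (TL-14d) after the operation, and conjunctiva of the left, unoperated eye was the control (cont), with 3 libraries in each of the 4 groups and 12 in all. By the study's description of the operation, operated eyes also received a conjunctival injection of the glucocorticoid betamethasone and an antibiotic ointment. The operated groups share all of these, so surgery, mitomycin C and betamethasone cannot be told apart. The labels give no age, do not tie control libraries to particular rabbits, and do not say when the control eyes were sampled.

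The 7 genes come from unrelated families. KLHL14 belongs to the BTB-kelch proteins, many of which bring substrates to ubiquitin ligases built on CUL3, and RBBP8NL resembles the first part of RBBP8, a factor that trims broken DNA ends. TRIM46 is a microtubule-binding tripartite motif protein that arranges microtubules in the axon initial segment of neurons, and PCDH8 is a non-clustered protocadherin, a cell adhesion molecule known from synapses and from the early embryo. CABP1 is a calmodulin-like calcium sensor of neurons that modulates calcium channels. SMTNL2 is a smoothelin-like protein with an actin-associated calponin homology domain, and EDAR is the receptor for ectodysplasin, which acts through the adaptor EDARADD and NF-kB in hair follicles, teeth and glands of the ectoderm.

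Library totals ran from 27111276 to 38591374 estimated counts. TMM scaling factors were 0.768 to 0.783 in the TL-3h libraries and 1.03 to 1.13 in the others. Levels are given as CPM, counts relative to library size after this scaling, and 3 counts correspond to 0.0712 to 0.124 CPM depending on the library. One operated library stood apart: over 13274 genes, TL-14d replicate 1 had a mean Pearson correlation of 0.951 with the control libraries and of 0.865 with its own group, against 0.839 and 0.892 with controls for replicates 2 and 3. The control libraries had mean correlations of 0.915 to 0.939 with each other. The 14-day comparisons of the 7 genes are therefore given with and without TL-14d replicate 1.

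In control conjunctiva the deposited FPKM values, which are per transcript length, put RBBP8NL first at 12.4 ± 6.01 (SD, n = 3), followed by TRIM46 at 9.72 ± 5.65 and PCDH8 at 8.58 ± 3.95. KLHL14 stood at 3.55 ± 3.79 FPKM, CABP1 at 1.05 ± 0.857, EDAR at 0.442 ± 0.283 and SMTNL2 at 0.368 ± 0.271. The ranges of neighbours in this order overlapped, as with RBBP8NL (5.46 to 16.4) and TRIM46 (4.61 to 15.8), or EDAR (0.122 to 0.659) and SMTNL2 (0.0623 to 0.578). The control libraries themselves differed widely, by 10.5-fold between highest and lowest CPM for KLHL14, 7.10-fold for CABP1, 9.86-fold for SMTNL2 and 2.58-fold for PCDH8. Control replicate 3 was the lowest control for every gene but SMTNL2, for which replicate 1 was lowest.

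**Figure D1:**
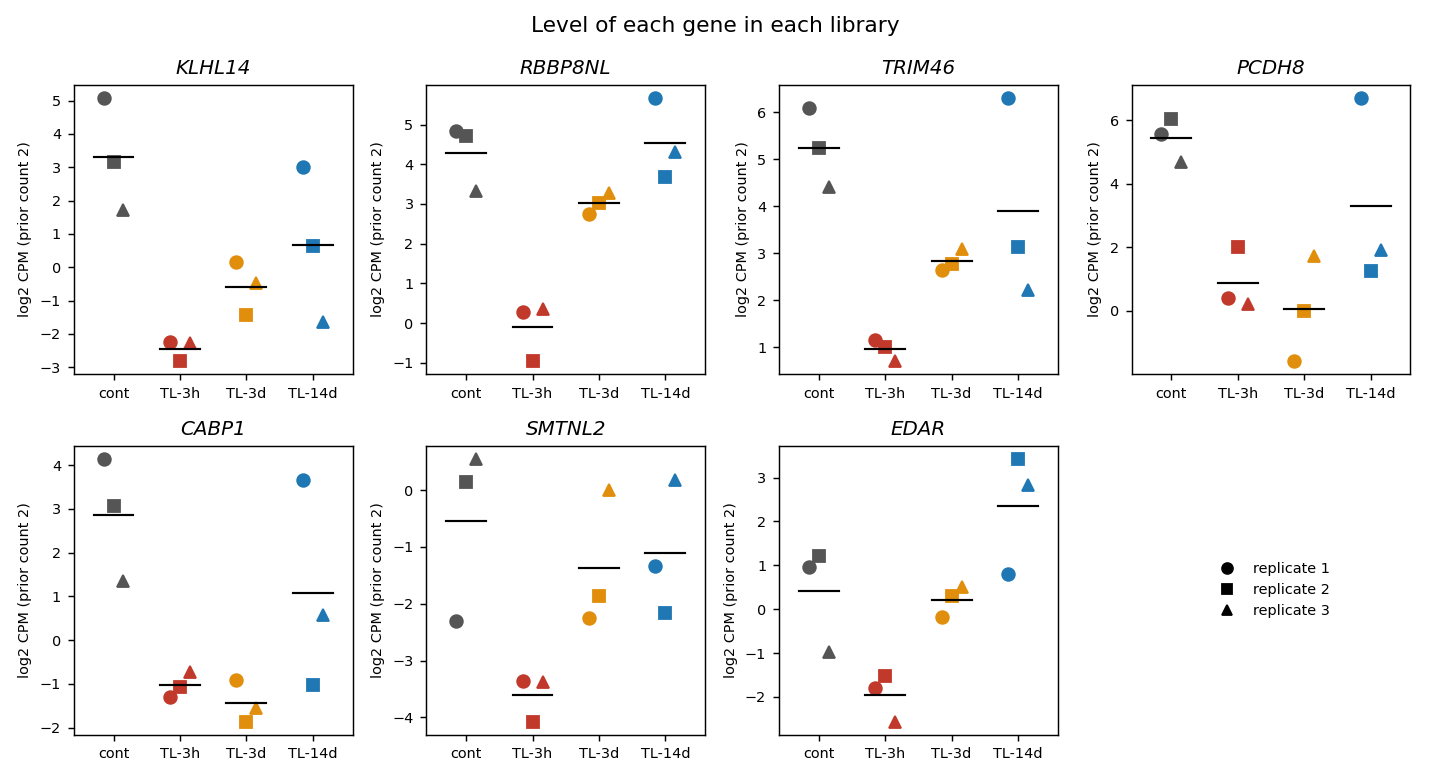
Level of each gene in each of the 12 libraries, as log2 CPM with a prior count of 2 on the vertical axis and group on the horizontal axis. Symbols mark replicate numbers and bars mark the mean of 3 libraries. Every TL-3h symbol lies below every control symbol, and the TL-14d circle (replicate 1) lies far above the other TL-14d symbols for TRIM46, PCDH8 and CABP1.

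KLHL14 was nearly undetectable at 3 hours. Its control levels were 33.6, 8.90 and 3.21 CPM in replicates 1, 2 and 3, and its TL-3h levels were 0.154, 0.0830 and 0.146 CPM, from 4, 2 and 4 counts. The mean at 3 hours was 0.838% of the control mean. At 3 days KLHL14 measured 1.05, 0.308 and 0.654 CPM, above all 3-hour libraries and below all controls. At 14 days it measured 7.90, 1.49 and 0.260 CPM, so that only replicate 1 reached the control range, while replicate 3 lay below every 3-day library and above every 3-hour one. Here as for every gene below, bulk libraries cannot tell fewer cells of a type from less RNA per cell.

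RBBP8NL measured 28.3, 26.2 and 10 CPM in controls and 1.15, 0.456 and 1.21 CPM at 3 hours. It had regained 6.69, 8.10 and 9.64 CPM at 3 days, just under the lowest control. At 14 days it measured 50.7, 12.7 and 19.6 CPM, and all 3 libraries lay at or above the lowest control. RBBP8NL had therefore reached the control range in each 14-day library, which KLHL14 had not.

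TRIM46 measured 68.2, 37.6 and 21.2 CPM in controls and 2.15, 1.95 and 1.57 CPM at 3 hours. Its 3-day levels were close together at 6.17, 6.77 and 8.42 CPM, above every 3-hour library and below every control. At 14 days it measured 78.7 CPM in replicate 1, above every control, and 8.75 and 4.62 CPM in replicates 2 and 3. Those last values lay near the 3-day levels.

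PCDH8 measured 47.5, 65.5 and 25.4 CPM in controls and 1.27, 3.98 and 1.10 CPM at 3 hours. It had not risen at 3 days, when it measured 0.275, 0.924 and 3.27 CPM, a range overlapping that at 3 hours. At 14 days it measured 103 CPM in replicate 1, above every control, and only 2.31 and 3.68 CPM in replicates 2 and 3. In those libraries PCDH8 stayed within its 3-hour range.

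CABP1 measured 17.6, 8.35 and 2.48 CPM in controls and 0.346, 0.415 and 0.549 CPM at 3 hours. At 3 days it measured 0.475, 0.215 and 0.284 CPM, again overlapping the 3-hour range. At 14 days it measured 12.7, 0.435 and 1.43 CPM, and only replicate 1 lay within the control range. CABP1 thus followed PCDH8 in showing no rise between 3 hours and 3 days.

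SMTNL2 was scarce throughout, at 0.142, 1.05 and 1.4 CPM in controls. At 3 hours 1, 0 and 1 counts were found, and the summed count of 2 against 104 in controls gave a ratio of 33.0 of controls over TL-3h. Its 95% exact interval of 8.91 to 276 shows the counting error of so few counts, and is no test of this difference. At 3 days it measured 0.15, 0.215 and 0.939 CPM and at 14 days 0.336, 0.163 and 1.07 CPM. All 6 of these values lay within the control range, whose lowest library held 6 counts.

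EDAR was also scarce, at 1.90, 2.28 and 0.451 CPM in controls and 0.231, 0.290 and 0.110 CPM at 3 hours. At 3 days it measured 0.824, 1.17 and 1.37 CPM, within the control range in every library. At 14 days it measured 1.68, 10.7 and 7.09 CPM, so that replicates 2 and 3 exceeded every control and replicate 1 did not. EDAR was the only gene of the 7 that was lowest in replicate 1 at 14 days, and its 14-day mean was 421% of the control mean.

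The quasi-likelihood test of edgeR was fitted to all 14835 genes, with p-values adjusted over them by Benjamini-Hochberg. In the 3-hour comparison that chose the genes, fitted log2 fold changes were -6.85 for KLHL14, -4.89 for SMTNL2, -4.51 for RBBP8NL, -4.48 for TRIM46, -4.45 for PCDH8, -4.43 for CABP1 and -2.86 for EDAR, where the value for SMTNL2 depends on the prior count. In that contrast 22.2% of all genes were called lower and 23.2% higher, and 28.3% were lower without overlap of the libraries. Among genes called lower without overlap and with a mean of at least 1 CPM, 3077 in number, KLHL14, RBBP8NL, TRIM46, PCDH8 and CABP1 took the first 5 places by fold change. FAM167A at -4.31, PBK at -4.22 and LOC100357419 at -4.22 came next, EDAR took place 120, and SMTNL2 fell under the limit with a mean of 0.462 CPM.

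**Figure D2:**
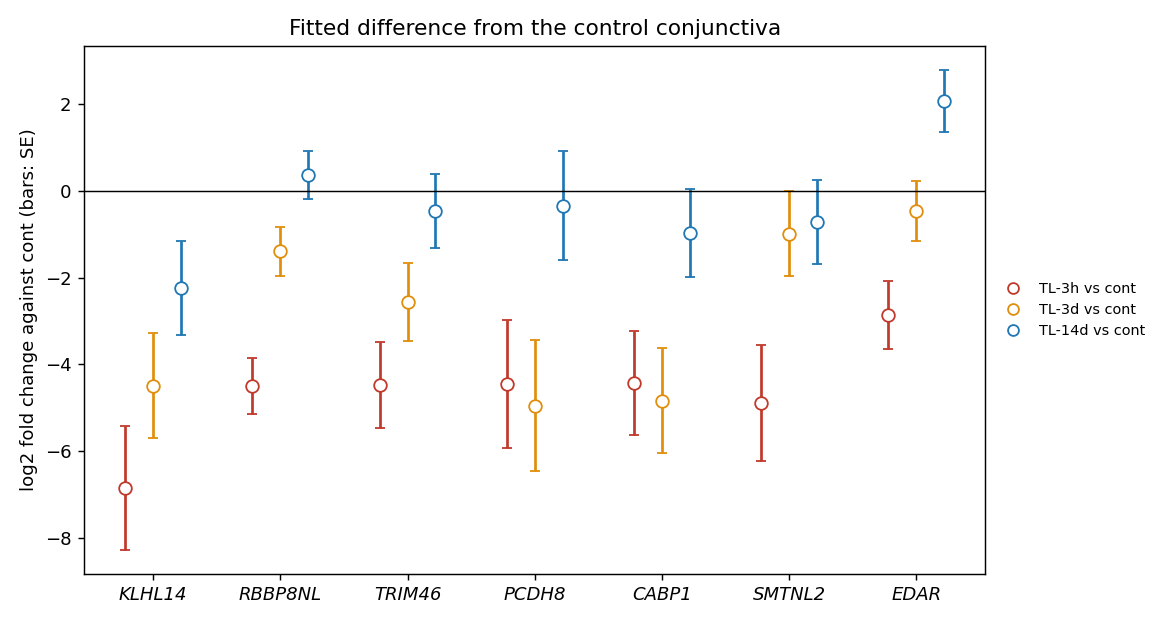
Fitted log2 fold change against cont for each gene at each of the times after surgery on the vertical axis, with bars of 1 standard error. All points are open and none is marked as tested, because the control libraries took part in the choice of the genes. At 3 days all 7 points lie below 0, from -4.95 for PCDH8 to -0.46 for EDAR, and at 14 days those of RBBP8NL and EDAR lie above it.

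At 3 days, KLHL14, PCDH8, CABP1, TRIM46 and RBBP8NL lay below every control library, and SMTNL2 and EDAR overlapped the controls. The control libraries took part in the choice of the genes, which favours high control values, so the differences from controls at 3 and 14 days are given as a description with no p-value. The log2 fold change at 3 days was -4.95 for PCDH8 (SE 1.51), -4.84 for CABP1 (SE 1.21) and -4.49 for KLHL14 (SE 1.21). TRIM46 gave -2.57 (SE 0.898) and RBBP8NL -1.4 (SE 0.555), while SMTNL2 gave -0.99 (SE 0.979) and EDAR -0.46 (SE 0.695). Of all genes 7.0% were called lower here and 21.7% were lower without overlap, and nothing is read from the 3 and 5 of the 7 beside them. The 3, namely KLHL14, PCDH8 and CABP1, became 0 when control replicate 1, control replicate 2 or any 1 of the TL-3d libraries was left out, and 5 with DESeq2 or without TL-14d replicate 1.

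From 3 hours to 3 days, RBBP8NL, SMTNL2, EDAR, KLHL14 and TRIM46 lay above every 3-hour library, and PCDH8 and CABP1 overlapped them. This comparison starts from the 3-hour libraries on which the genes were selected, so its values are given as a description with no p-value. RBBP8NL was 8.68-fold higher by its means (log2 fold change 3.11, SE 0.612) and EDAR 5.33-fold higher (2.4, SE 0.785). SMTNL2 had a ratio of summed counts of 16.5, with a counting interval of 4.33 to 141. KLHL14 gave 2.36 (SE 1.30) and TRIM46 1.91 (SE 0.902). PCDH8 gave -0.50 (SE 1.35) and CABP1 -0.41 (SE 1.14). The sign of PCDH8 turned without TL-3h replicate 2, and that of CABP1 only when scaled by library size, which moves the median of all genes in this comparison from -0.05 to 0.42. Of all genes 18.4% were called higher here and 26.2% were higher without overlap, and nothing is read from the 3 and 5 of the 7 beside them. Without any 1 of the 3-hour libraries, or without TL-3d replicate 2 or 3, the 3 became 1, RBBP8NL.

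At 14 days all 7 genes overlapped the controls. Of all 14835 genes 0% were called in this comparison by edgeR, and 1538 genes had an unadjusted p under 0.05. DESeq2 called 367, and edgeR called 716 without TL-14d replicate 1. The log2 fold change was -2.24 for KLHL14 (SE 1.09), -0.97 for CABP1 (SE 1.02) and -0.72 for SMTNL2 (SE 0.974). It was -0.46 for TRIM46 (SE 0.846), -0.34 for PCDH8 (SE 1.26) and 0.36 for RBBP8NL (SE 0.544), and EDAR gave 2.07 (SE 0.710). Without TL-14d replicate 1, KLHL14 gave -4.10, PCDH8 -3.95, CABP1 -3.35 and TRIM46 -2.66. RBBP8NL turned to -0.41, SMTNL2 gave -0.49 and EDAR 2.525 without that library.

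The comparison of 14 days with 3 hours starts from the same selected libraries and is likewise a description. All 7 genes were past the threshold for higher, as were 22.9% of all genes, and 5 of 7 lay above every 3-hour library, as did 25.2% of all genes, and nothing is read from either count. PCDH8 and CABP1 were the ones that overlapped. The log2 difference was 4.93 for EDAR (SE 0.839) and 4.87 for RBBP8NL (SE 0.654). It was 4.60 for KLHL14 (SE 1.33), 4.11 for PCDH8 (SE 1.46), 4.02 for TRIM46 (SE 0.970) and 3.46 for CABP1 (SE 1.15), and SMTNL2 had a ratio of summed counts of 19.5, with a counting interval of 5.12 to 166. Without TL-14d replicate 1 the difference was 0.51 for PCDH8, 1.08 for CABP1, 1.82 for TRIM46 and 2.75 for KLHL14, and 4 of the 7 were past the threshold. Without any 1 of the 3-hour libraries, 3 were.

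The step from 3 to 14 days is the only comparison whose libraries took no part in the choice of genes. No gene of the 7 passed the edgeR test there with all libraries, where 0.647% of all genes were called higher. EDAR (2.53, SE 0.725, edgeR adjusted p = 0.0899) and RBBP8NL (1.76, SE 0.561, edgeR adjusted p = 0.111) were higher in every 14-day library than in every 3-day library, as were 13.4% of all genes. CABP1 gave 3.87 (SE 1.17, edgeR adjusted p = 0.0989) and PCDH8 4.61 (SE 1.49, edgeR adjusted p = 0.115), both with libraries that overlapped. TRIM46 gave 2.11 (edgeR adjusted p = 0.195), KLHL14 2.25 (edgeR adjusted p = 0.264) and SMTNL2 0.26 (edgeR adjusted p = 0.899). DESeq2 called PCDH8, CABP1, EDAR and RBBP8NL higher, with adjusted p of 0.0025 to 0.0214. Without TL-14d replicate 2, CABP1 was called higher by edgeR at 4.41 (edgeR adjusted p = 0.0469). Without TL-14d replicate 1 the edgeR values became 1.01 for PCDH8 (edgeR adjusted p = 0.629), 1.49 for CABP1 (edgeR adjusted p = 0.385), 0.99 for RBBP8NL (edgeR adjusted p = 0.346), 0.39 for KLHL14 (edgeR adjusted p = 0.887) and -0.09 for TRIM46 (edgeR adjusted p = 0.946). EDAR gave 2.99 (edgeR adjusted p = 0.0691) and SMTNL2 0.50 (edgeR adjusted p = 0.873) without that library.

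**Figure D3:**
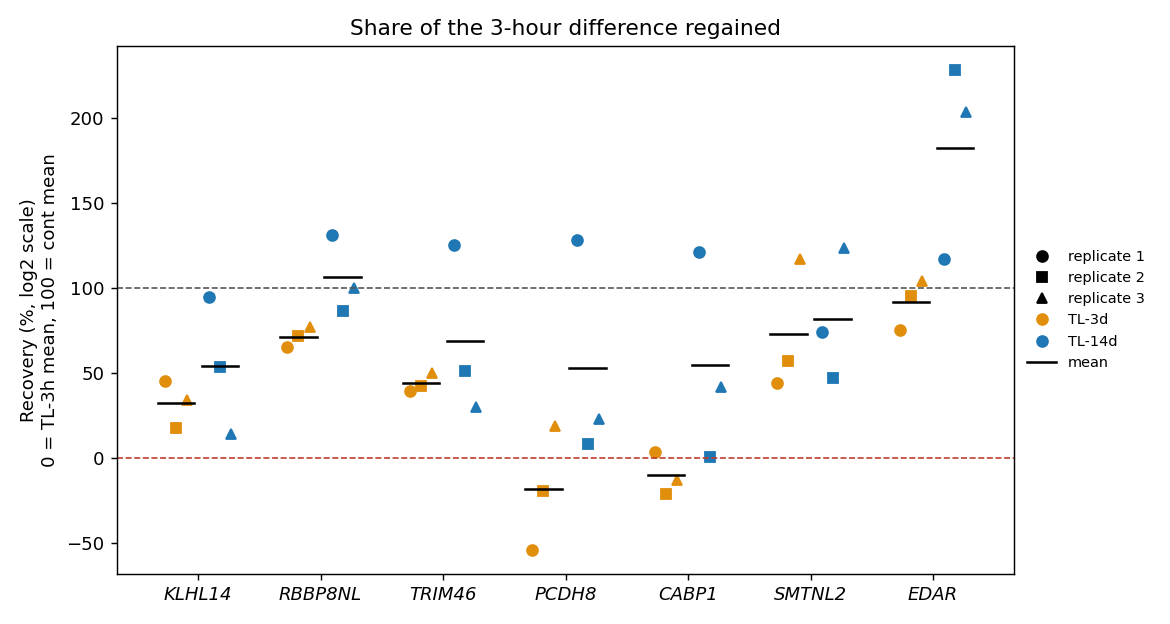
Recovery of each gene in each TL-3d and TL-14d library on the vertical axis, in percent of the distance on the log2 scale from the TL-3h mean (0, lower dashed line) to the cont mean (100, upper dashed line). Symbols mark replicates and bars the mean of 3. EDAR lies above 100 in all 3 TL-14d libraries, and for TRIM46, PCDH8 and CABP1 only replicate 1 does.

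Set as a share of the log2 distance between the 3-hour and control means, recovery at 3 days ran from -18.4% to 91.6% over the 7 genes, with a median of 43.8%. EDAR stood at 91.6% ± 14.9 (SD, n = 3), SMTNL2 72.7% ± 39.3 and RBBP8NL 71.1% ± 5.94. TRIM46 stood at 43.8% ± 5.32 and KLHL14 at 32.1% ± 13.9, whereas CABP1 stood at -10.4% ± 12.5 and PCDH8 at -18.4% ± 36.5. On the linear CPM scale the same shares were smaller for the genes that had moved part of the way, at 35% ± 7.17 for RBBP8NL, 12.9% ± 2.88 for TRIM46 and 3.59% ± 2.45 for KLHL14 (SD, n = 3), and EDAR stood at 68.3% ± 20.6. At the level of single libraries, each TL-3d library held 2 of 7 genes at or above the lowest control, SMTNL2 and EDAR, and no gene above the highest control.

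At 14 days recovery ran from 52.8% to 182%, with a median of 68.4%. EDAR stood at 182% ± 58.4 (SD, n = 3), RBBP8NL at 106% ± 23.1 and SMTNL2 at 81.3% ± 38.9. TRIM46 stood at 68.4% ± 49.8, CABP1 at 54.3% ± 61.3, KLHL14 at 53.9% ± 40.3 and PCDH8 at 52.8% ± 65.4, with replicate 1 the highest library for each. These means and the median include TL-14d replicate 1, so the libraries are also given singly, in the order of replicates 1, 2 and 3. For PCDH8 the 3 libraries gave 128%, 8.05% and 22.5%, and for CABP1 121%, 0.387% and 41.4%. TRIM46 gave 125%, 50.9% and 29.7%, and KLHL14 94.4%, 53.5% and 13.8%. RBBP8NL gave 131%, 86% and 100%, SMTNL2 73.9%, 46.8% and 123%, and EDAR 117%, 228% and 203%. On the linear CPM scale EDAR stood at 472% ± 341 and KLHL14 at 20.5% ± 27.1 (SD, n = 3). TL-14d replicate 1 held 7 of 7 genes at or above the lowest control, and replicates 2 and 3 held 3 of 7 each, namely RBBP8NL, SMTNL2 and EDAR.

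Over the 12 libraries, which share the 4 group means, the Pearson correlation of log2 CPM was 0.96 for KLHL14 and TRIM46 and 0.90 for PCDH8 and CABP1. Taken on deviations from the group means, the correlations among KLHL14, RBBP8NL, TRIM46, PCDH8 and CABP1 ran from 0.51 to 0.88, and those of EDAR with these 5 genes from -0.38 to -0.19. On deviations, the value of KLHL14 with TRIM46 held without TL-14d replicate 1, while several others rest largely on that library. Without it, an alternative chosen after seeing the data, the deviations of the 11 other libraries gave -0.10 to 0.85 among the 5 genes, with 0.12 for PCDH8 and CABP1 and 0.85 for KLHL14 and TRIM46, and EDAR turned to values of 0.41 to 0.80 with them. The deviations of SMTNL2 from its group means gave -0.59 to 0.11 with the other genes over 12 libraries and -0.73 to 0.32 over 11. All of these are descriptions, and no test was made of them.

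**Figure D4:**
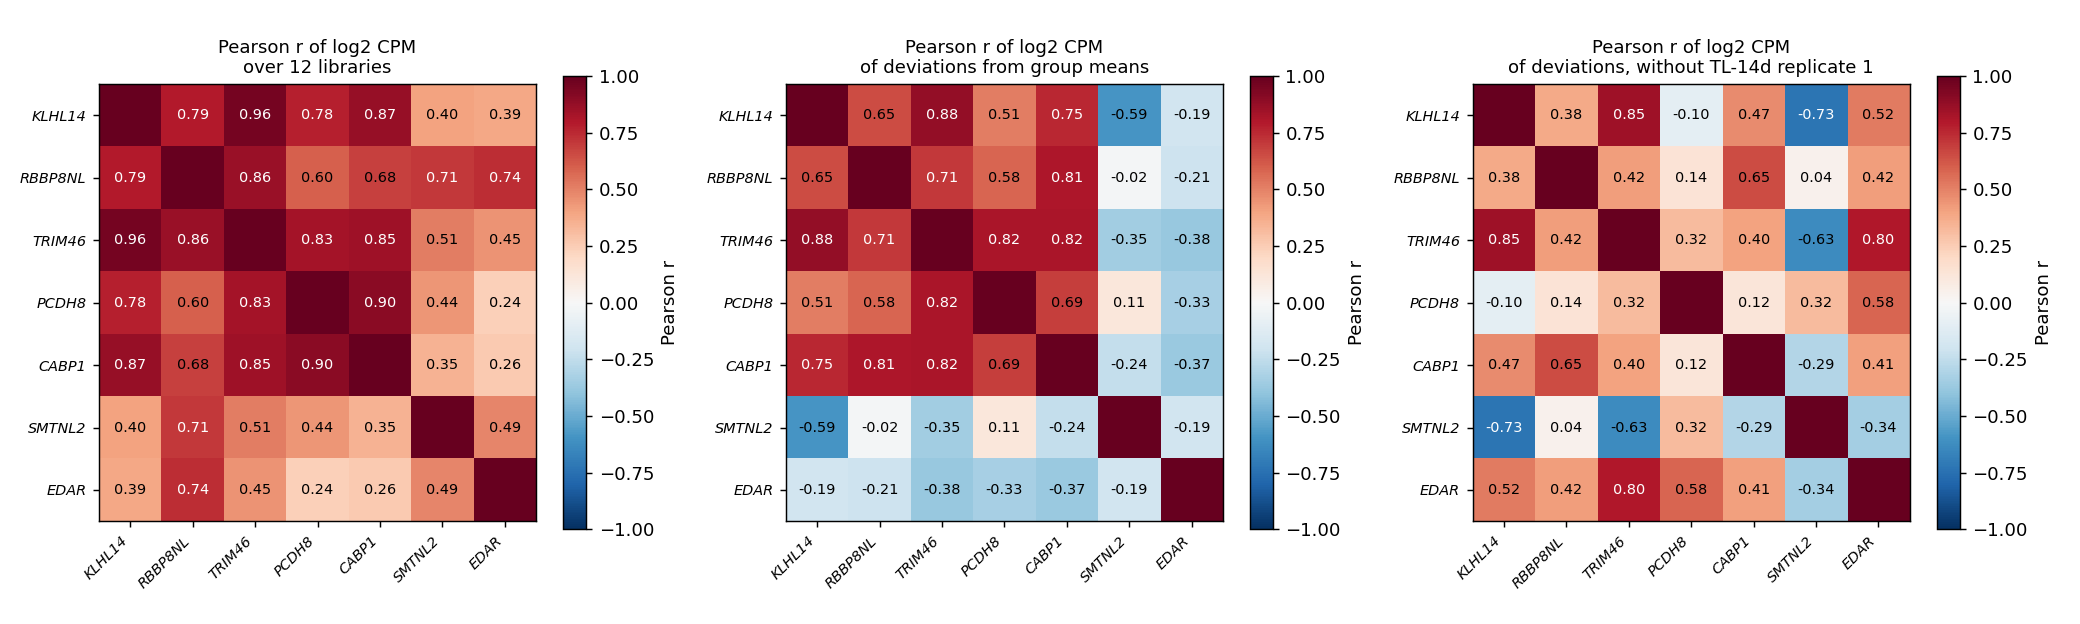
Pearson correlation of log2 CPM between each pair of the 7 genes, over the 12 libraries (left), over deviations from the 4 group means (middle) and over the same deviations without TL-14d replicate 1 (right), with colour running from -1 to 1. The block of positive values among KLHL14, RBBP8NL, TRIM46, PCDH8 and CABP1 in the left and middle panels is weaker in the right one, where the row of EDAR turns positive against these 5 genes.

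By the same measure over 12 libraries, the 3 genes most like each member are named here, with nothing implied of shared function. Without TL-14d replicate 1 each of these correlations stayed at 0.903 or above. KLHL14 was closest to RAB11FIP2 (r = 0.973), an effector of the recycling GTPase RAB11, whose mean was 61.8 CPM in controls and 28.5 CPM at 3 hours, and then to PARM1 (r = 0.968) and TRIM46 itself. RBBP8NL was closest to RERE (r = 0.986), a nuclear receptor coregulator, and to C17H14orf93 (r = 0.986) and ARHGEF10L (r = 0.984). TRIM46 was closest to MOK, EPB41L1 and YPEL3 (r = 0.964 to 0.966), of which EPB41L1 links membrane proteins to the cytoskeleton. PCDH8 was closest to MIIP, LRRC73 and PIGC (r = 0.968 to 0.974).

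CABP1 was closest to ALDH1A1 (r = 0.980), a retinaldehyde dehydrogenase. Its mean of 1110 CPM in controls had become 523 in TL-3h, 465 in TL-3d and 988 in TL-14d libraries. LOC100353812 and ABLIM3 followed at r = 0.977 and 0.968. EDAR was closest to PLEKHG5 (r = 0.955), SPEF2 (r = 0.948) and the ligand gene WNT5B (r = 0.940). The WNT5B mean of 4.16 CPM in controls had become 0.773 in TL-3h, 2.7 in TL-3d and 11.8 in TL-14d libraries. SMTNL2 had the lowest values, 0.9 to 0.904 with FAM188B, SPEG and PDE7B.

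The transcript table split 4 of the genes into several transcripts, and KLHL14, RBBP8NL and SMTNL2 into 1 each. For CABP1, a transcript of 8105 bases took 89.3% of the counts in controls, 45% at 3 hours, 50.9% at 3 days and 78.8% at 14 days, and one of 1361 bases took 9.01%, 55%, 40.2% and 18.8%. The 3-hour shares rest on summed estimates of 17.1 and 20.9 counts. For PCDH8, the 5060-base transcript took 69.7% in controls and 24.5% at 3 hours, with nearly all of its 3-hour counts in replicate 2. TRIM46 was carried by its 3527-base transcript in every group, at 94.2% to 100%. For EDAR, the share of the 3347-base transcript was 83.2% in controls, 58.6% at 3 hours, 58.5% at 3 days and 72.8% at 14 days. Its summed estimates were only 9.38 counts at 3 hours against 6.62 for the other transcript, and in controls it had 80, 73.0 and 6.62 counts in replicates 1, 2 and 3, where the other had 13.4 counts in replicate 3. All of these shares are estimates that divide reads between overlapping transcripts, and no test was made of them.

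In the OryCun2.0 assembly, KLHL14 lies on chromosome 9 (74008852 to 74107235, minus strand), TRIM46 on chromosome 13 (37509128 to 37518514, minus strand) and PCDH8 on chromosome 8 (54261730 to 54267372, minus strand). CABP1 lies on chromosome 21 (11932160 to 12003062, minus strand), SMTNL2 on chromosome 19 (14010353 to 14028997, minus strand) and EDAR on chromosome 2 (83674342 to 83698044, plus strand). RBBP8NL lies on sequence not placed on a chromosome, which the file joins into a single unit (471010145 to 471023683, plus strand). No gene of the table overlaps any of the 7, though TRIM46 lies 114 bases from KRTCAP2 and CABP1 135 bases from POP5. Counts were fractional for 3 values of TRIM46 and 2 of PCDH8, and whole for the other 5 genes.

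Of 7 lists of genes related to the members, 5 held both falls and rises at 3 hours and 2 held falls alone, beside 22.2% of all genes called lower and 23.2% higher. In the ectodysplasin pathway 5 of 13 tested genes fell, 5 rose and 3 were not called, with a median log2 fold change of 0.10 against 0.02 over all genes. EDARADD, the adaptor of EDAR, fell from 22.5 ± 6.16 to 2.48 ± 1.12 CPM (SD, n = 3, edgeR adjusted p = 0.00402). EDA, the ligand, fell from 10.9 ± 2.38 to 1.79 ± 0.251 CPM (SD, n = 3, edgeR adjusted p = 0.000119), and the second receptor EDA2R from 8.37 ± 3.38 to 3.22 ± 0.776 CPM (edgeR adjusted p = 0.00615). The receptor gene TNFRSF19 gave -1.04 (edgeR adjusted p = 0.116). The signalling partners TAB1 (-1.76, edgeR adjusted p = 3.87e-05) and TAB2 (-0.39, edgeR adjusted p = 0.0453) fell as well. EDA, EDA2R, TNFRSF19 and TAB1, and below MAP3K7, CHUK and TRAF6, are named after their values were seen. At 3 days EDA measured 10.5 ± 1.75 CPM and EDARADD 6.98 ± 1.76 CPM, and none of the 13 genes was called against controls then or at 14 days. The kinase gene IKBKB rose at 3 hours (log2 fold change 0.75, edgeR adjusted p = 0.0377), as did LTB, a ligand of a related receptor (2.62, edgeR adjusted p = 0.000663). The other risers were CHUK (1.07, edgeR adjusted p = 0.00275), MAP3K7 (0.88, edgeR adjusted p = 0.00247) and TRAF6 (0.39, edgeR adjusted p = 0.0478).

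The list of BTB-kelch proteins and CUL3 also holds TOR1A, which is neither and is named for that reason. In this list 8 of 33 tested genes fell at 3 hours, 8 rose and 17 were not called, with a median of -0.26. TOR1A was among those that rose (1.11, edgeR adjusted p = 0.000718). KLHL32 (from 1.31 ± 0.708 to 0.0892 ± 0.0542 CPM, SD, n = 3, edgeR adjusted p = 0.00741) and KLHL38 (from 0.338 ± 0.3 to 0.025 ± 0.0217 CPM, edgeR adjusted p = 0.0112) had the largest fitted changes among the genes called, and the 3-hour means of both were under the level of 3 counts. KLHL24, the list's highest gene by mean CPM, fell from 251 ± 14.4 to 75.6 ± 5.98 CPM (SD, n = 3, edgeR adjusted p = 4.7e-05) and CUL3, the ligase scaffold, gave -0.17 (edgeR adjusted p = 0.412). At 3 days 4 of 33 were lower, KLHL24 and KLHL3 among them, where 7.0% of all genes were lower. The 2 that were higher were KLHL5 and TOR1A, where 10.6% of all genes were higher.

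Of the class I tripartite motif proteins and axon initial segment genes, 4 of 8 tested fell at 3 hours and none rose, with a median of -1.14. These were ANK3, the ankyrin that anchors the axon initial segment and is also made in epithelia (-1.76, edgeR adjusted p = 0.00302), SPTBN4, a spectrin of the same structure (-1.10, edgeR adjusted p = 0.0236), MAPT, the microtubule protein tau (-1.37, edgeR adjusted p = 0.00125), and MID2, a microtubule-binding relative of TRIM46 (-0.53, edgeR adjusted p = 0.0341). At 3 days MAPT, SPTBN4 and MID2 were still lower than controls.

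Of the DNA end resection genes around RBBP8, 5 of 8 fell at 3 hours and none rose, where 22.2% of all genes fell and 23.2% rose, with a median of -0.86. BRCA1 fell from 5.33 ± 3.13 to 0.845 ± 0.198 CPM (SD, n = 3, edgeR adjusted p = 0.000765) and was above controls at 3 days, at 20.5 ± 2.16 CPM (edgeR adjusted p = 0.0161). DNA2 moved likewise, being lower at 3 hours (edgeR adjusted p = 0.00424) and higher at 3 days (edgeR adjusted p = 0.0418). The list's highest genes by mean CPM, CTBP2 and NBN, gave 0.39 (edgeR adjusted p = 0.181) and -0.37 (edgeR adjusted p = 0.0731) at 3 hours. RBBP8NL itself lay below the controls at 3 days.

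Of the neuronal calcium sensors and related genes, 3 of 11 fell at 3 hours and 3 rose, with a median of -0.29. VSNL1, a calcium sensor, fell from 9.10 ± 5.42 to 0.883 ± 0.305 CPM (SD, n = 3, edgeR adjusted p = 0.000833) and measured 8.55 ± 2.50 CPM at 3 days. NCALD fell from 122 ± 68.3 to 26.3 ± 6.75 CPM (edgeR adjusted p = 0.000989) and was still lower at 3 days (edgeR adjusted p = 0.0150). HPCAL4 rose from 0.0163 ± 0.0141 CPM, under the level of 3 counts, to 1.26 ± 0.924 CPM at 3 hours (SD, n = 3, edgeR adjusted p = 0.0026).

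Of the non-clustered protocadherins, 1 of 10 fell at 3 hours and 2 rose, PCDH10 and PCDH9, with a median of 0.69. Those with the highest mean CPM, PCDH1 and PCDH7, gave 0.64 (edgeR adjusted p = 0.188) and 0.44 (edgeR adjusted p = 0.261). At 3 days PCDH15 was lower than controls (-4.42, edgeR adjusted p = 0.0137). Of the smoothelins and their actin and MAP kinase partners, 2 of 8 fell at 3 hours and 1 rose, with a median of 0.23. The riser was TPM4, a tropomyosin (2.11, edgeR adjusted p = 0.000635). The kinase gene MAPK9 fell (-0.94, edgeR adjusted p = 0.000128) and TPM1 gave 0.08 (edgeR adjusted p = 0.932). SMTN, the founding smoothelin, gave 0.52 at 3 hours (edgeR adjusted p = 0.172) and was higher than controls at 3 days (1.26, edgeR adjusted p = 0.0218).

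The label given to the set joins epithelial and neural genes. Of 28 tested epithelial identity genes 6 fell at 3 hours, 6 rose and 16 were not called, shares near those of all genes (22.2% lower, 23.2% higher), with a median of -0.38, and their summed level ran from 9600 to 17900 CPM in controls and from 8980 to 15400 CPM at 3 hours. The 6 that fell, named after their values were seen, were the splicing regulators ESRP1 and ESRP2, the transcription factors GRHL1, GRHL2 and GRHL3, and PAX6, the master regulator of eye development. CLDN4, a tight junction claudin, rose from 347 ± 56.5 to 2270 ± 536 CPM (SD, n = 3, edgeR adjusted p = 0.000955), and OVOL1 rose (2.52, edgeR adjusted p = 0.0033). The other risers, also named after their values were seen, were KRT18 (1.7, edgeR adjusted p = 0.0243), EPCAM (1, edgeR adjusted p = 0.000884), CLDN7 (1, edgeR adjusted p = 0.028) and KLF4 (0.94, edgeR adjusted p = 0.0433). The keratins KRT5 and KRT4 gave 0.17 and -0.74 (edgeR adjusted p = 0.8 and 0.291).

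Most neuron markers were too low to test. Of the 14 found, 6 could be tested, NEFH was at 0 in all controls, and the summed level ran from 4.58 to 36.9 CPM in controls and from 11.6 to 19.4 CPM at 3 hours, with UCHL1 higher (edgeR adjusted p = 0.0307) and none lower. NEFL, a neurofilament gene, had the highest mean, at 12.2 ± 17.5 CPM in controls and 8.85 ± 3.91 CPM at 3 hours (SD, n = 3, edgeR adjusted p = 0.767). The Schwann cell list summed to 481 to 830 CPM in controls, 281 to 349 CPM at 3 hours, 239 to 289 CPM at 3 days, and 819, 377 and 327 CPM in TL-14d replicates 1, 2 and 3. Its sum is carried by ERBB3, a receptor that epithelia also make (578 ± 223 CPM in controls, 137 ± 59.2 CPM at 3 hours, SD, n = 3, edgeR adjusted p = 0.0061), and 1 of 10 genes fell and 1 rose. Goblet cell markers summed to 704 to 1740 CPM in controls and 237 to 1130 CPM at 3 hours, with FCGBP the 1 of 4 that fell (edgeR adjusted p = 0.0162).

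**Figure D5:**
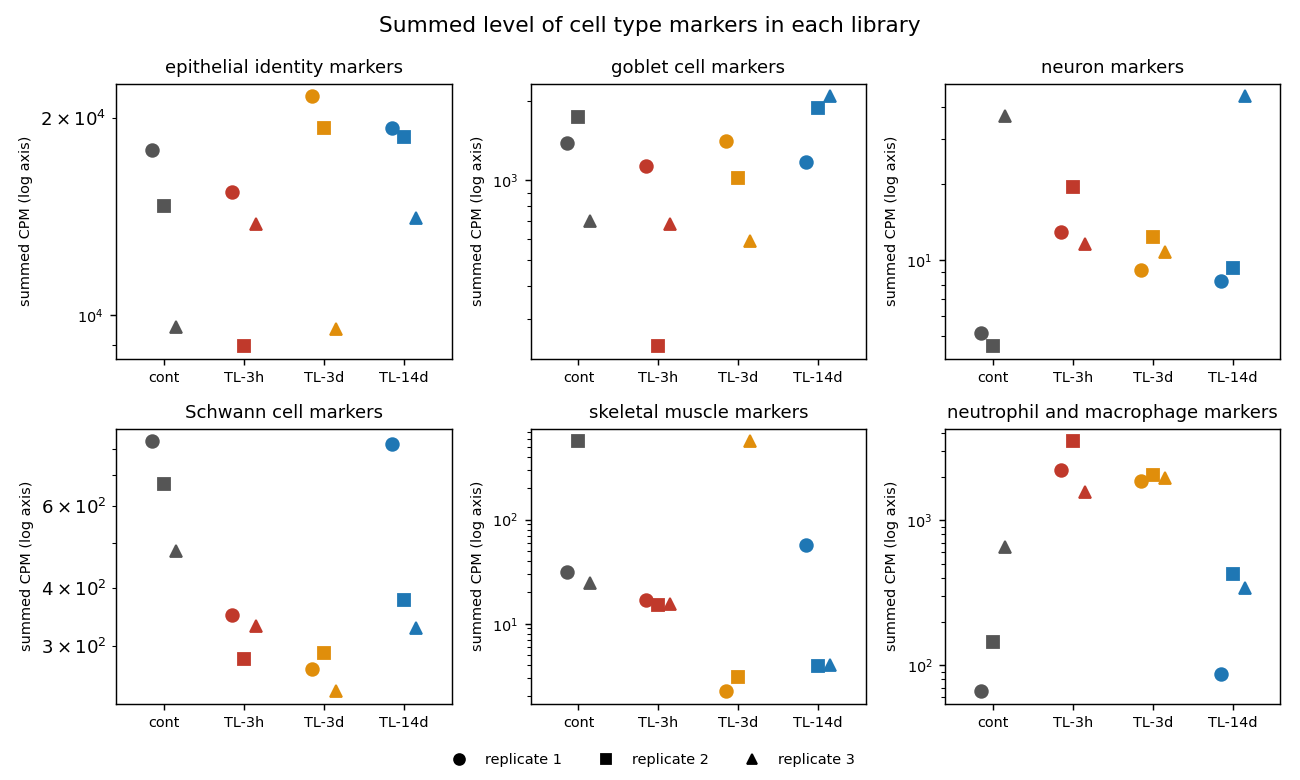
Summed CPM of 6 marker lists in each library on a log axis, by group, with symbols for replicates. Epithelial identity sums overlap between cont (9600 to 17900) and TL-3h (8980 to 15400), the Schwann cell list is high in cont and in TL-14d replicate 1, and neutrophil and macrophage sums are highest at 3 hours and 3 days.

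Neutrophil and macrophage markers rose at 3 hours in 7 of 10 tested genes, where 23.2% of all genes rose, and summed to 66.1 to 651 CPM in controls and 1570 to 3510 in TL-3h, then 1860 to 2040 in TL-3d and 86.9 to 424 in TL-14d libraries, with the lowest 14-day sum in replicate 1. Of 9 B cell markers 2 rose and 1 fell at 3 hours, where 23.2% of all genes rose and 22.2% fell, and the sum ran from 2.75 to 6.32 CPM in controls, 6.46 to 17.5 CPM at 3 hours, 33.6 to 40.8 CPM at 3 days, when 3 of 9 were called higher than in controls (10.6% of all genes), and 3.70 to 122 CPM at 14 days. None of 5 skeletal muscle and 6 melanocyte markers was called at 3 hours. The skeletal muscle sum reached 564 CPM in control replicate 2 and 566 CPM in TL-3d replicate 3, and was between 2.25 and 57.7 CPM in the other libraries. The melanocyte sum ran from 24.7 to 192 CPM over the series. The part of these cell types in the levels of the 7 genes was not tested.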

How the data were processed

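Conjunctival RNA of 12 rabbit eyes, 3 in each group, was sequenced from stranded mRNA libraries as paired reads of 150 bp. Per the study's methods and the submitters' processing notes, reads were mapped by STAR 2.6.0c to OryCun2.0 and values per gene and per transcript came from GeneData Profiler Genome. The authors deposited estimated counts (expected counts, 23.4% of them fractional in the gene table) and FPKM values; how reads with several placements and strand were handled is not given in the sources used here. Counts were rounded, filtered with filterByExpr (minimum count 10, minimum total 15), scaled by TMM and fitted in 1 model of all 12 libraries with edgeR 4.0.16 (glmQLFit, glmQLFTest) in R 4.3.3, with Benjamini-Hochberg adjustment over 14835 genes and a threshold of 0.05. Each standard error (SE) was derived from that test, as the absolute log2 fold change divided by the square root of its F statistic. FPKM served only to order genes by level. The same fit was tested on simulated data.

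Calls are by that test, and "lower" or "higher" without overlap means that all 3 libraries of a group lie beyond all 3 of the other. With 3 against 3 an exact permutation test of a single gene cannot go below p = 0.1, so none was used. The labels do not tie libraries to animals, so p-values measure the spread between these libraries. No 2 libraries of a group agreed within sampling noise. The genes, the lists and the tests were chosen with earlier results of these data known. Named are the 7 genes, the 3 genes most correlated with each, and from each list of related genes the 2 highest in level and the 2 most changed among those called at 3 hours, with further genes where stated; marker lists are given mainly by counts and sums, not every gene this rule takes is printed for them, and some genes of these lists are not reported here. Alternatives were DESeq2 1.42.0 and its size factors, scaling by library size only, no filter, a replicate block, only the 6 libraries compared, and leaving out each library. Sequences were not used here. Intervals cover counting error only.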

Additional observations from a re-analysis of the deposited data

Results flagged for a closer look

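EDAR is singled out because its difference from the control mean, taken in CPM, has opposite signs in different groups. All 3 TL-3h libraries and all 3 TL-3d libraries lay below the control mean of 1.54 CPM, and all 3 TL-14d libraries lay above it. EDAR was chosen for its low TL-3h values, so the sign at 3 hours was fixed by that choice and the comparison with TL-3h uses the same libraries. On the log2 scale TL-3d replicate 3 lay slightly above the control mean, at 104% recovery, so the opposite sign in every 3-day library holds for CPM alone. The difference between TL-14d and TL-3h was 4.935 on the log2 scale, higher in 3 of 3 libraries and given with no p-value because of that choice, and that between TL-14d and TL-3d was 2.534 (edgeR adjusted p = 0.0899, higher in 3 of 3 libraries), which does not pass the threshold. In groups of 3 no search for single outlying libraries was made.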

How the results depend on the processing

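Of 752 values recomputed for the 7 genes, 661 kept direction and side of the threshold, 63 lost the call, 17 gained one and 11 turned direction. Without 1 library, log2 fold changes at 14 days against controls ran from -0.4137 to 0.7084 for RBBP8NL, from -2.663 to 0.06253 for TRIM46 and from -3.948 to 0.2105 for PCDH8; from 3 to 14 days they ran from -0.08986 to 2.617 for TRIM46 and from -0.7996 to 1.502 for SMTNL2, and from 3 hours to 3 days from -1.828 to 0.3637 for PCDH8. CABP1 from 3 hours to 3 days turned to 0.05831 when scaled by library size only, a scaling that moves the median of all genes from -0.0502 to 0.425 in that comparison and from 0.0238 to -0.473 at 3 hours against controls. Genes past the threshold numbered 2608 at 3 days against controls (DESeq2 4471, without 1 library 359 to 3778), 0 at 14 days against controls (DESeq2 367, without 1 library 0 to 716) and 332 from 3 to 14 days (DESeq2 1850, only the 6 libraries 15, without 1 library 0 to 584). Among calls at 3 hours 51.0% were higher under TMM and 25.0% by library size only. The cause was not tested, beyond the loss of samples that leaving out libraries brings.

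The labels do not say whether replicate numbers pair the samples, and the main fit used no pairing. Deviations of same-numbered libraries correlated at -0.26 to 0.52 (median 0.04, 18 pairs). Those of other numbers correlated at -0.57 to 0.41 (median -0.02, 36 pairs), and 8 of 12 libraries correlated best with their own number. Pairing by number is thus left unsettled. With the replicate block 288 genes passed from 3 to 14 days against 332, and calls among the 7 genes went from 7 to 6 at 3 hours, 3 to 2 at 3 days and 7 to 5 from 3 hours to 14 days.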
